A study of Homo sapiens with 12 samples.

Results

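RNA levels were compared between 2 Huh7 clones that had not been given doxycycline, 1 with an inducible construct for wild-type (WT) A1CF and 1 with an inducible construct for the G398S form. Huh7 is a human hepatoma line, and A1CF is an RNA-binding protein best known as a cofactor of the enzyme that edits apolipoprotein B mRNA. The genes compared were the 65 whose symbol stood in both deposited tables, out of 142 genes in the WT table and 1863 in the G398S table. Each table set the doxycycline-treated libraries of 1 clone against its untreated ones and held only genes that the authors marked as significant, so all 65 had been called for a change with doxycycline in both clones (by the authors' deposited table, q of at most 0.0452 in WT and at most 0.0476 in G398S). The study asked how the mutant and wild-type proteins differ in their effect on cellular lipid metabolism.

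The 12 libraries fell into 4 groups of 3, namely WT clone without doxycycline, WT clone with doxycycline, G398S clone without doxycycline and G398S clone with doxycycline. All 4 groups carried an inducible A1CF construct, and each form was represented by 1 clone, so the form carried and the clone carrying it cannot be told apart. A group given doxycycline but lacking a construct is not among them, and whether the 3 libraries of each group are separate cultures is not stated. Values are FPKM (fragments scaled for transcript length and for library size), given by the authors as 1 pooled value per group, with no replicate values, no error and no depth. The tables were scaled separately. Differences between clones are therefore descriptions without a test, given as log2 of (WT + 1)/(G398S + 1), where 1 FPKM was added to both values. In bulk RNA, fewer cells of a type and less RNA per cell cannot be told apart. Positions are on hg19 unless another build is named.

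Clones grown from single cells of a hepatoma line can differ in genes of cell state before any construct is switched on. NF-kappaB transcription factors can control chemokines, their own inhibitors and some secreted defence proteins. Whether they did so in these clones was not tested. Secreted defence proteins such as SLPI, PI3 and lysozyme are typical of mucosal and biliary epithelium and are low in hepatocytes. Of 18 hepatocyte markers, 8 were in the G398S table, at 4.32 to 753 FPKM without doxycycline, among them APOE, APOA1, TF and FABP1. None of the 18 was in the WT table, so the hepatocyte identity of the WT clone was not checked here. Of 7 biliary or progenitor markers, 3 were in the G398S table and none was in the WT table. Without doxycycline the keratin KRT19 stood at 193 FPKM, but SPP1 and SOX9 only at 4.70 and 1.24 FPKM.

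Without doxycycline, several genes of secreted mucosal defence, a group chosen with earlier results of these data known, were higher in the WT clone. Chemokines went both ways, with 2 of the 5 listed ones at least 2-fold higher. The antiproteases SLPI and PI3, the ubiquitin ligase TRIM31, the protease CTSE and lysozyme, LYZ, led the protein-coding genes outside the globins, with log2 differences of 3.36 to 5.86. The gamma-globin rows HBG1 and HBG2 had the largest differences of all, and the alpha-globin row HBA2 went the other way. Whether these rows hold RNA of the globin genes was not tested. A1CF itself differed little. Among the 65 genes, 20 were at least 2-fold higher in the WT clone (30.8%) and 3 were at least 2-fold lower (4.62%).

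The differences leaned to the WT side. In all, 49 genes had a higher value in the WT clone and 16 a lower one, with a median log2 difference of 0.54 and quartiles of 0.03 and 1.31. Whether the separate scaling of the tables adds to this lean was not tested. Subtracting the median, which fixes the balance at any size, left 15 genes at least 2-fold higher and 8 at least 2-fold lower. At a fold of 4 the counts were 14 higher and 1 lower, and 8 genes were at least 8-fold higher. At the other end, 28 genes lay within 1.5-fold of each other in the clones. The genes next to the 2-fold line were INHBE (1.02) and PTP4A1 (0.90) on the upper side, and FAT4 (-1.04) and RRAGC (-0.94) on the lower side.

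**Figure D1:**
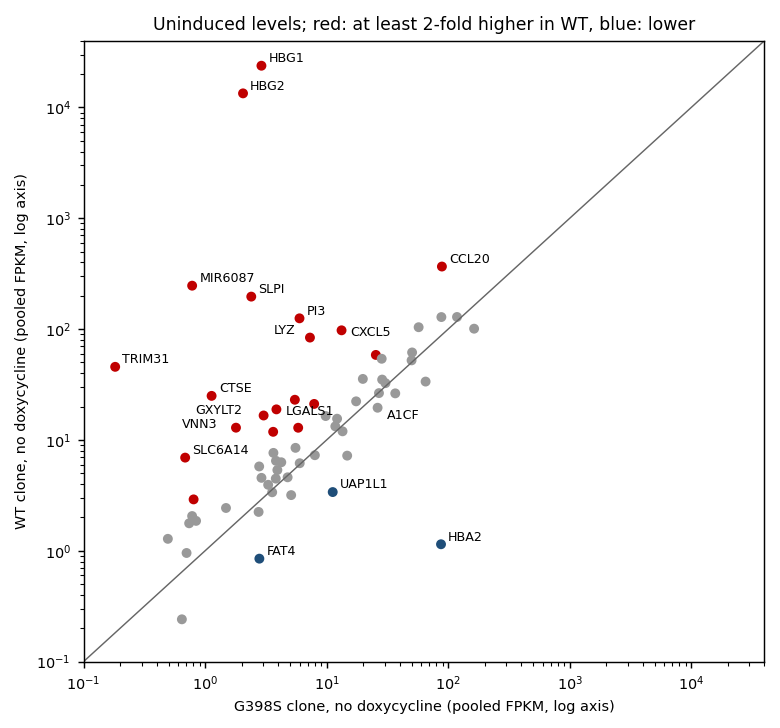
Pooled FPKM of the 65 genes without doxycycline, with the G398S clone on the horizontal and the WT clone on the vertical log axis, 1 point per gene and a line of equal levels. The 20 red genes are at least 2-fold higher in WT and the 3 blue ones at least 2-fold lower, with 1 FPKM added. HBG1 and HBG2 lie farthest above the line and HBA2 farthest below it.

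Across the 65 genes the log2(FPKM + 1) levels of the uninduced clones had a Pearson correlation of 0.32, and without the 3 globin rows and MIR6087 the 61 remaining genes gave 0.71. In the induced groups the same figures were 0.76 and 0.83. The points share their libraries and are genes, not replicates. Of the 20 genes higher in WT, 17 stood below 10 FPKM in the uninduced G398S clone. A low value in that clone is part of how these 20 were chosen. The same count was not made over all 65 genes, so it describes these 20 only. Values below 1 FPKM were found for 10 of the 65 genes in that clone and for 3 in the WT clone.

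The construct's own gene was examined first. A1CF (chromosome 10, 52559039 to 52645465) stood at 19.5 FPKM in the uninduced WT clone and at 26.3 FPKM in the uninduced G398S clone, a log2 difference of -0.41. With doxycycline the values were 33.2 and 80.9 FPKM, a log2 difference of -1.26. The uninduced clones were thus within 2-fold of each other, and the induced ones were not. The rows do not separate RNA of the construct from that of the resident gene.

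Genes of mucosal defence were among those with the largest differences. SLPI (chromosome 20, 43880880 to 43883205), a secreted inhibitor of neutrophil elastase, stood at 196 FPKM in the WT clone and 2.40 FPKM in the G398S clone, a log2 difference of 5.86. PI3, or elafin, a related antiprotease, stood at 125 and 5.98 FPKM (4.18). LYZ, which cleaves bacterial cell walls, stood at 83.9 and 7.29 FPKM (3.36). Each of these was among the 8 genes at least 8-fold higher in the WT clone. CTSE, cathepsin E, an aspartic protease of gastric and other epithelia, stood at 25 and 1.13 FPKM (3.61). TRIM31, a ubiquitin ligase of the TRIM family, stood at 45.7 FPKM in WT and only 0.182 FPKM in G398S, and its log2 difference of 5.30 ranged from 3.29 to 7.97 with 5 FPKM and with nothing added.

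The vanin genes, a family known for enzymes that release cysteamine from pantetheine, were unequal. VNN3 stood at 12.9 and 1.80 FPKM (2.31), whereas its neighbour VNN2 stood at 6.29 and 4.24 FPKM (0.48). Of the 29 genes listed for mucosal and secretory functions, 6 were in the WT table, 8 in the G398S table and 4 in both. These 4, SLPI, LYZ, VNN3 and VNN2, were all higher in WT, as were 49 of the 65 genes. At least 2-fold higher were 3 of the 4, beside 30.8% of all 65, with a median log2 difference of 2.83 against 0.54 over all 65 genes. The list was drawn up with earlier results of these data known. Of 7 immune cell markers, LYZ alone was in either table, and the others were not analysed here. PI3, CTSE and TRIM31 stand outside that list and are named for the size of their difference.

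With doxycycline the differences at these genes changed to unequal extents. SLPI stood at 129.6 FPKM in WT and 32.0 FPKM in G398S, so its log2 difference went from 5.86 to 1.99, and that of PI3 went from 4.18 to 1.84, with 67.3 and 18 FPKM. LYZ kept a difference of 3.05, with 39.4 and 3.87 FPKM, and CTSE one of 3.39, with 15.8 and 0.605 FPKM. TRIM31 kept 4.10, with 25.4 and 0.544 FPKM. VNN3 turned, with 2.07 FPKM in WT and 4.82 FPKM in G398S (-0.92). For SLPI, PI3, TRIM31 and VNN3 the authors' deposited table gave falls in WT (log2 fold changes of -0.60, -0.90, -0.84 and -2.64) and rises in G398S (3.74, 1.59, 1.58 and 1.42). LYZ and CTSE fell in both clones in the authors' deposited table (log2 fold changes of -1.09 and -0.66 in WT, -0.91 and -0.90 in G398S).

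**Figure D2:**
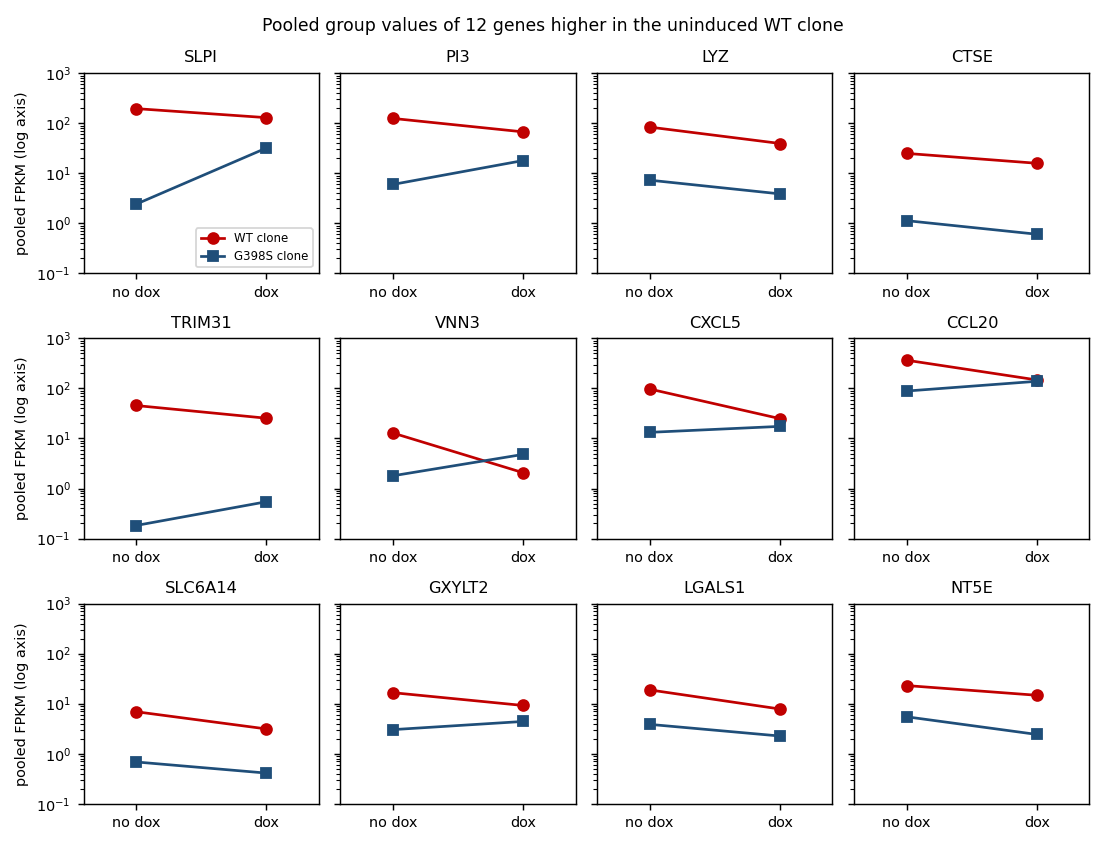
Pooled FPKM on a log axis for 12 genes without and with doxycycline, with red circles for the WT clone and blue squares for the G398S clone, 1 pooled value per group and no error. LYZ, CTSE and TRIM31 stay apart in both states, CXCL5 and CCL20 come closer together with doxycycline, and VNN3 crosses.

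Chemokines differed gene by gene rather than together. CXCL5 (chromosome 4, 74861359 to 74864446), which attracts neutrophils, stood at 97.5 FPKM in the uninduced WT clone and 13.3 FPKM in the uninduced G398S clone (2.79). CCL20, a ligand for a receptor of lymphocytes and dendritic cells, stood at 367 and 88.8 FPKM (2.03). CXCL6, a close relative of CXCL5, stood at 5.35 and 3.93 FPKM (0.36), and CXCL1 was level, at 4.60 and 4.78 FPKM (-0.04). CXCL8, another neutrophil attractant, was lower in WT, at 26.3 and 36.7 FPKM (-0.46). Of the 24 genes listed for chemokines and cytokines, 6 were in the WT table, 8 in the G398S table and 5 in both. Of these 5, 2 were at least 2-fold higher in WT and none was at least 2-fold lower, a count close to the 30.8% over all 65 genes, and the median was 0.36. CX3CL1, a membrane-bound chemokine outside that list, stood at 11.8 and 3.63 FPKM (1.47).

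With doxycycline CCL20 was close to level between the clones, and the difference of CXCL5 was smaller than without it. CCL20 stood at 148 FPKM in WT and 139 FPKM in G398S (0.08), and CXCL5 at 24.9 and 17.5 FPKM (0.49). CXCL1 and CXCL8, nearer to level without doxycycline, were then lower in WT by more than 2-fold, with 1.48 and 6.64 FPKM for CXCL1 (-1.63) and 8.30 and 26.2 FPKM for CXCL8 (-1.55).

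Regulators and targets of NF-kappaB went both ways. Of 23 listed genes, 12 were in the WT table, 8 in the G398S table and 6 in both. UBD, a ubiquitin-like modifier induced by cytokines, was the 1 gene past 2-fold with 1 FPKM added, at 58.5 and 25.4 FPKM (1.17). TNFAIP3 and BIRC3 stood at 1.86 and 0.843 FPKM (0.63) and at 1.28 and 0.494 FPKM (0.61), both near 1 FPKM. With nothing added, TNFAIP3 and BIRC3 were past 2-fold as well (1.14 and 1.38). The inhibitor NFKBIE was level at 6.17 and 6.01 FPKM (0.03). The subunits NFKB2 and RELB, which pair in the noncanonical pathway, were lower in WT, at 2.24 and 2.76 FPKM (-0.21) and at 3.18 and 5.11 FPKM (-0.55). The median of the 6 genes was 0.32, against 0.54 over all 65, and 1 of 6 past 2-fold compares with 30.8% over all 65. MAP3K8, a kinase upstream of NF-kappaB and of ERK, stood at 5.76 and 2.79 FPKM (0.84).

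Promoter sequence was set beside these differences for some genes that held an NF-kappaB consensus decamer, namely 4 listed chemokines, UBD and TRIM31. Of these, CXCL5 and CXCL6 are neighbouring paralogs with unlike clone differences. Genes at least 2-fold higher in WT but without the decamer, such as CTSE, NT5E and SLC6A14, are not shown. The sequences below are the last 150 bases before the annotated start, from RefSeq on GRCh38.p14, 5′ to 3′ on the strand of the gene. Capitals mark matches to the NF-kappaB consensus decamer, on either strand, where overlapping matches run together. The windows are chr4:73998678-73998827, minus strand (CXCL5), chr4:73836528-73836677, plus strand (CXCL6), chr4:73869243-73869392, plus strand (CXCL1), chr2:227813692-227813841, plus strand (CCL20), chr6:29559733-29559882, minus strand (UBD) and chr6:30113091-30113240, minus strand (TRIM31).
CXCL5: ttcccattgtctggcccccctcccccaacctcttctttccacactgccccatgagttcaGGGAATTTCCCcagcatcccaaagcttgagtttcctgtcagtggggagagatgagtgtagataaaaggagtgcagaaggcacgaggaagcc
CXCL6: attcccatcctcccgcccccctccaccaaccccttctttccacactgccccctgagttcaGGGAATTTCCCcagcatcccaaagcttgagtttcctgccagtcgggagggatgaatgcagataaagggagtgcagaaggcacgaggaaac
CXCL1: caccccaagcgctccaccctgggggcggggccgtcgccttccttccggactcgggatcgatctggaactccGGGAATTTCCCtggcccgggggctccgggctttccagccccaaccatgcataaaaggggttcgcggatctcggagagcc
CCL20: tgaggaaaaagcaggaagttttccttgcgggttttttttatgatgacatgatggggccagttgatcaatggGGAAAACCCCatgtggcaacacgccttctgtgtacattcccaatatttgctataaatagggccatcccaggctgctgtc
UBD: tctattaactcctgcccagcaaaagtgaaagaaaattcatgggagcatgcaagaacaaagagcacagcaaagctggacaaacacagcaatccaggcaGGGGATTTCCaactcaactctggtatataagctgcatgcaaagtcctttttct
TRIM31: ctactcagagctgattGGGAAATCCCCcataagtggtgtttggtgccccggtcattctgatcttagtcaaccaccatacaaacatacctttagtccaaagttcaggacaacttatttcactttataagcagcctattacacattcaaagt

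The CXCL5 and CXCL6 windows, aligned end to end, had 135 identical bases, 14 mismatches and 2 gaps (89.4% identity), and both held the decamer with its first base 91 and 90 bases before the start. Clone differences at these genes were 2.79 and 0.36. CXCL1, level between the clones, held the same run of letters at 79 bases. CXCL8, lower in WT (-0.46), held no match to the decamer in its window. The decamers of CCL20, UBD and TRIM31 began 79, 53 and 134 bases before their starts. A promoter in the RefSeq table was found for 45 of the 65 genes, and not for SLPI, PI3 or LYZ. In the 250 bases before the start, 14 of these 45 held the decamer, 4 of the 10 that were at least 2-fold higher in WT and 10 of the other 35. By window, the decamer was in 17 of 73 windows of these genes (23.3%) and in 9.96% of the 35116 windows of all genes. A match is a run of letters and says nothing of binding.

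Among the other genes with large differences were 4 that belong to no common list and are named for their size alone. SLC6A14, an importer of neutral and basic amino acids, stood at 6.93 FPKM in WT and 0.686 FPKM in G398S (2.23). GXYLT2, a xylosyltransferase that acts on Notch-type repeats, stood at 16.6 and 3.03 FPKM (2.13). LGALS1, galectin-1, a lectin that binds galactosides, stood at 18.9 and 3.86 FPKM (2.03), and NT5E, the ectoenzyme that makes adenosine from AMP, at 23.0 and 5.48 FPKM (1.89). Other surface, transport or glycan genes among the 65 went both ways without doxycycline. CX3CL1, B4GALNT4 and SDC4 were higher in WT (1.47, 0.67 and 0.54), and MMP14 and SLCO4C1 were near level (0.09 and -0.06). FAT4 and UAP1L1 were lower in WT (-1.04 and -1.48). SLC6A14, GXYLT2, LGALS1 and NT5E were all higher in WT with doxycycline as well. NT5E was then at 14.7 and 2.42 FPKM (2.2), SLC6A14 at 3.13 and 0.410 FPKM (1.55), LGALS1 at 7.82 and 2.26 FPKM (1.44) and GXYLT2 at 9.21 and 4.42 FPKM (0.91).

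Lipid genes among the 65 were few and mixed. ACSL1, which activates long-chain fatty acids, stood at 21.1 FPKM in the uninduced WT clone and 7.90 FPKM in the uninduced G398S clone (1.31). With doxycycline it was level, at 14.1 and 15.7 FPKM (-0.14), and the authors' deposited table gave log2 fold changes with doxycycline of -0.58 in WT and 0.99 in G398S. ACSS2, which makes acetyl-CoA from acetate, stood at 12 and 13.5 FPKM (-0.16). The sterol synthesis genes went different ways, HMGCS1, an early enzyme of the mevalonate pathway, at 101 and 163 FPKM (-0.69) and MSMO1, which removes methyl groups late in the pathway, at 129 and 118 FPKM (0.12). Of the 28 sterol genes and 41 fatty acid and triglyceride genes listed, 2 each were in both tables, and none of 21 lipoprotein genes was.

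Targets of ATF4, the factor that answers amino acid shortage, gave differences close to those of the 65 genes as a whole. STC2, a secreted glycoprotein of the stress response, stood at 2.91 and 0.805 FPKM (1.11), DDIT4, an inhibitor of mTORC1, at 7.64 and 3.65 FPKM (0.89), ASNS, asparagine synthetase, at 22.3 and 17.5 FPKM (0.33), and TRIB3, a pseudokinase, at 26.5 and 27.0 FPKM (-0.03). Of 28 listed genes these 4 were in both tables, 1 of them at least 2-fold higher in WT beside 30.8% over all 65 genes, and their median was 0.61 beside 0.54. With doxycycline the median was 1.27 beside 0.29 over all 65 genes, and STC2 stood at 5.25 and 0.472 FPKM (2.09) and ASNS at 39.9 and 13.7 FPKM (1.47). INHBE, an activin subunit made in liver and outside the list, stood at 12.9 and 5.84 FPKM (1.02).

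The lower side held 3 genes past 2-fold, HBA2, UAP1L1 and FAT4. UAP1L1, a relative of the enzyme that makes UDP-N-acetylglucosamine, stood at 3.39 FPKM in WT and 11.2 FPKM in G398S (-1.48). FAT4, a large cadherin of planar polarity and growth control, stood at 0.849 and 2.80 FPKM (-1.04). RRAGC, a GTPase that signals amino acids to mTORC1, and TUBB3, a beta-tubulin typical of neurons, lay just under the line, at 7.22 and 14.8 FPKM (-0.94) and at 33.6 and 65.2 FPKM (-0.94). With doxycycline UAP1L1 (-1.22), TUBB3 (-0.87) and RRAGC (-0.75) remained lower in WT, and FAT4 was at -0.24.

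The gamma-globin rows were higher in WT and the HBA2 row lower, though the paired HBA2 rows may lie on opposite strands, as described below. Gamma-globins pair with alpha-globin in fetal haemoglobin and are made in red cell precursors, not in hepatocytes. HBG1 (chromosome 11, 5269502 to 5271087) stood at 23802 FPKM in the uninduced WT clone and 2.91 FPKM in the uninduced G398S clone (12.57), and HBG2 at 13402 and 2.05 FPKM (12.10). HBA2 (chromosome 16, 222846 to 223709) stood at 1.15 and 87.3 FPKM (-5.36). With doxycycline HBG1 stood at 186 and 98.7 FPKM (0.91), HBG2 at 141 and 87.3 FPKM (0.68) and HBA2 at 9.67 and 1453 FPKM (-7.09). HBG1 and HBG2 are near-identical copies between which reads can be split, as are HBA2 and its neighbour HBA1. Of 14 erythroid markers, 3 were in the WT table and 4 in the G398S table, all of them globins, and the remaining markers were not analysed here. The globin rows summed to 37206 FPKM without and 337 FPKM with doxycycline in WT, and to 183 and 4535 FPKM in G398S, where HBB was the additional row. The library kit depletes globin RNA, and whether depletion differed between libraries was not tested.

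Row numbers bear on what these rows measured. In both tables the authors' row numbers ran by chromosome. Within it, genes of the plus strand came first and then those of the minus strand. This held for 130 of 135 WT rows and 1695 of 1716 G398S rows whose strand GENCODE gives on GRCh38. The switch between strands was placed on each chromosome where it matched most rows, so part of this match is by construction. HBG1 and HBG2 are annotated on the minus strand and stood among plus-strand rows in both tables. HBA2 is annotated on the plus strand and stood among plus-strand rows in the WT table but among minus-strand rows in the G398S table. BEND3, at 4.55 and 2.91 FPKM (0.51), had rows in different blocks too, so for HBA2 and BEND3 the paired rows may lie on opposite strands. CTSE and MIR6087 were out of order in both tables, in the same block each time, and a strand on GRCh38 can differ from that on hg19. Without these 6 genes, 16 of 59 were at least 2-fold higher in WT and 2 lower. Whether the globin rows hold RNA of the globin genes was not tested.

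MIR6087, a microRNA symbol, stood at 247 FPKM in the uninduced WT clone and 0.782 FPKM in the uninduced G398S clone (7.12), and at 8.31 and 6.11 FPKM with doxycycline (0.39). Its WT row spans 541 bases on chromosome X, longer than a microRNA hairpin, so what RNA was counted there is uncertain. SNORD7, a small nucleolar RNA symbol, stood at 35.1 and 28.6 FPKM (0.28), and its rows shared 53.4% of their joint span. Rows of NFKB2, PTP4A1, UBD and VNN2 also shared under 90% of their span between the tables, 21.3%, 25.6%, 58.9% and 87.3%.

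The lists for growth factor feedback, matrix and solute carriers held 1 of the 65 genes each (BHLHE40, MMP14 and SLC6A14), and that for RNA editing held A1CF. The lists for interferon, acute-phase, lipoprotein, hepatocyte, antioxidant and proliferation genes held none.

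The other genes lay within 2-fold with 1 FPKM added. Those 1.5-fold to 2-fold higher in WT included PTP4A1, a phosphatase tied to growth, at 54.0 and 28.4 FPKM (0.90), SGK1, a kinase regulated by glucocorticoids, at 104 and 57.2 FPKM (0.85), the aminopeptidase DNPEP at 35.5 and 19.9 FPKM (0.81) and the calcium-binding protein CHP1 at 16.4 and 9.82 FPKM (0.69). The myosin MYH4, the glycosyltransferase B4GALNT4 and the histone deacetylase HDAC9 had log2 differences of 0.78, 0.67 and 0.63. The MYH4 row spans 242409 bases, and whether all RNA counted there is of MYH4 was not tested. SDC4, a heparan sulfate proteoglycan, was at 128 and 87.9 FPKM (0.54). LOC101928100, ZNF704 and the shared row of CBX5 and MIR3198-2 had 0.54, 0.47 and 0.33.

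Several genes above 30 FPKM were near level. MALAT1, a nuclear long noncoding RNA, stood at 52.3 FPKM in WT and 50.0 FPKM in G398S (0.06), MMP14, a membrane-anchored matrix protease, at 32.5 and 30.5 FPKM (0.09), and PEG10, an imprinted gene derived from a retrotransposon, at 61.6 and 50.5 FPKM (0.28). IREB2, which controls iron-responsive mRNAs, and the circadian repressor BHLHE40 were at 0.16 and 0.19. The transcription factor ONECUT2 and NCR3LG1, a ligand of natural killer cells, were both at 0.20. SLCO4C1, an organic anion transporter, and RAB14, a GTPase of endosomal traffic, were at -0.06 and -0.12. NCR3LG1 and PXK were below 1 FPKM in both uninduced clones, at 0.955 and 0.704 FPKM and at 0.241 and 0.644 FPKM. For PXK the log2 difference was -0.41 with 1 FPKM added and -1.42 with nothing added.

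The induced groups set the clones side by side in libraries that the uninduced values do not include. They also differed in the A1CF form induced and in its level (33.2 FPKM in WT and 80.9 FPKM in G398S). The separate scaling of the tables was shared with the uninduced comparison, so this is no repeat of it. In the induced groups 14 of the 65 genes were at least 2-fold higher in WT (21.5%) and 5 at least 2-fold lower (7.69%). At any size 45 were higher and 20 lower, with a median log2 difference of 0.29. Of the 20 genes at least 2-fold higher in WT without doxycycline, 10 were so with it, 18 had a smaller difference, and 2, NT5E and STC2, a larger one. With nothing added CTSE also had a larger one (4.47 and then 4.71). VNN3 and ACSL1 were the 2 of the 20 that fell below 0. These 20 genes were chosen on their uninduced values, so the smaller difference is a description and no test. A further 7 genes passed 2-fold with doxycycline only: PTP4A1 (1.10), DDIT4 (1.07), ASNS (1.47) and ONECUT2 (1.01) higher in WT, and CXCL1 (-1.63), CXCL8 (-1.55) and A1CF (-1.26) lower.

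**Figure D3:**
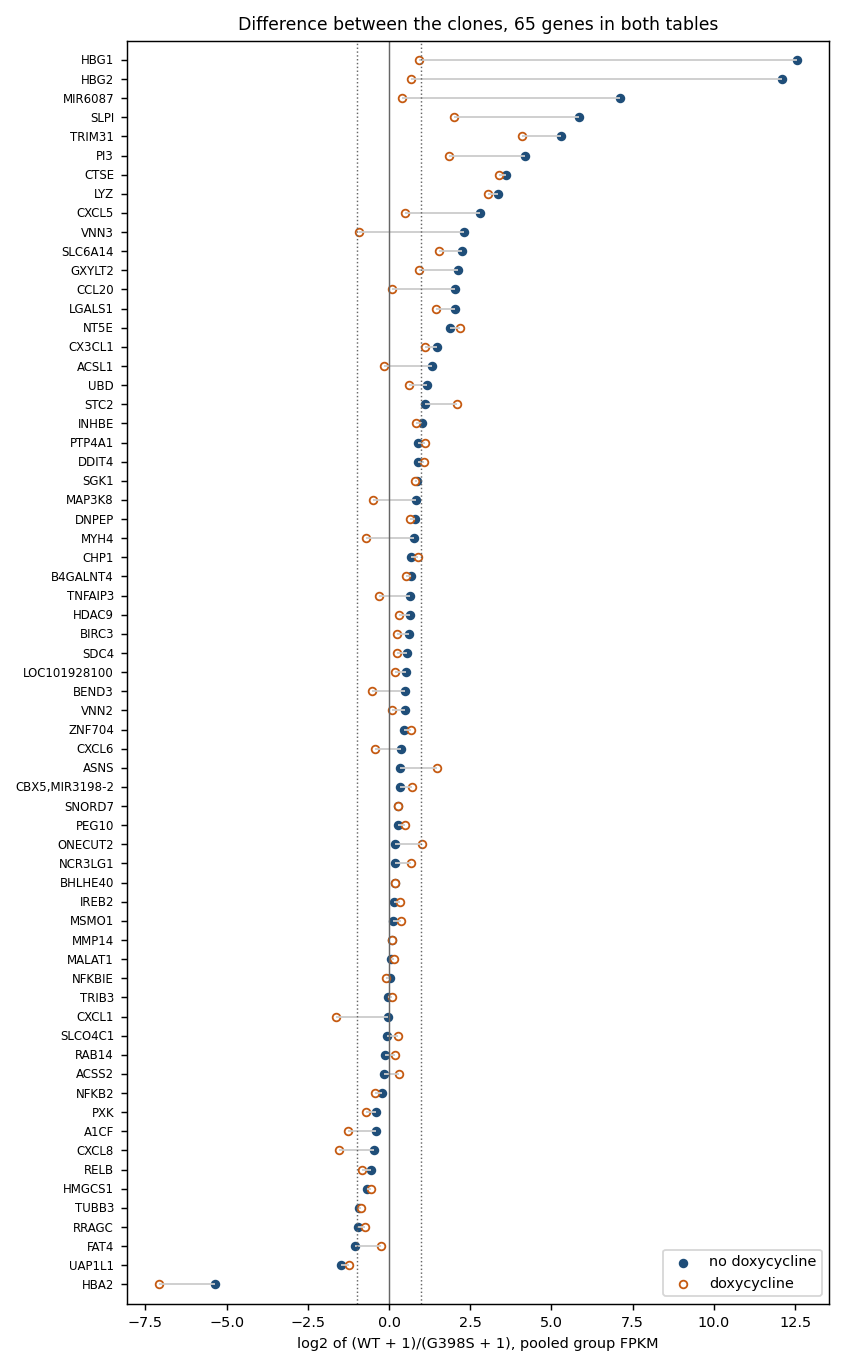
Log2 of (WT + 1)/(G398S + 1) for each of the 65 genes, ordered by the uninduced value, with filled points for groups without doxycycline, open points for groups with doxycycline and dotted lines at 2-fold. The uninduced values run from 12.57 for HBG1 to -5.36 for HBA2, and most filled points lie right of 0.

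Some of these genes are neighbours in the genome. In 8 pairs of adjacent genes among the 65 the gap was under 1 Mb, involving 13 genes. PI3 and SLPI, 75.7 kb apart on chromosome 20 in a cluster of antiprotease genes, were both far higher in WT, while SDC4, 70.7 kb beyond SLPI, differed by 0.54. UBD and TRIM31, 543 kb apart in the major histocompatibility region of chromosome 6, had 1.17 and 5.30. On chromosome 4, CXCL8, CXCL6, CXCL1 and CXCL5 followed each other between 74606223 and 74864446, and only CXCL5 of these 4 passed 2-fold without doxycycline. HBG1 and HBG2 lay 3.33 kb apart, and VNN3 and VNN2 lay 8.52 kb apart, with differences of 2.31 and 0.48. Neighbours thus had unlike differences at the chemokine and vanin loci.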

How the data were processed

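Total RNA of 12 Huh7 libraries was made into strand-specific libraries with ribosomal and globin RNA depletion, per the labels' protocols. Per the submitters' processing notes, hg19 was the genome and the tools were Cuffdiff, Cufflinks 2.2.1, STAR 2.5.0b and bcl2fastq 2.9.1. How they were set, and how strand was handled, is not given in the sources used here. Both tables, of genes the authors marked as significant, hold 1 pooled FPKM per group as deposited, and each was scaled on its own. Per the file headers, each row also has a log2 fold change and a q-value of the authors' comparison with doxycycline. The table deposited under a WT name was taken as the WT clone.

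Rows were matched on the whole symbol cell. Log2 differences with 1 FPKM added were computed in Python 3.11.15 (pandas 2.3.3), and the calculation was tested on simulated data. No test between clones was possible, and depth is unknown. Values in full were given for A1CF, for up to 12 genes past 2-fold in each direction and for up to 6 genes of each of 17 gene lists, with further members beside them. Members and lists were chosen with earlier results of these data known. Starts in the files count from 0, and 1 was added. Gene strands came from GENCODE and promoters from RefSeq. Alternatives were other pseudocounts, folds, filters, centring, symbol matching and leaving out globin and small RNA rows. Those on row span and row order were added to these and chosen after seeing the data.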

Additional observations from a re-analysis of the deposited data

How the results depend on the processing

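The count of genes at least 2-fold higher in the uninduced WT clone, 20, ranged from 14 to 26 under every alternative except a fold of 1.5, which gave 31. The count of lower genes, 3, was small and moved more. It was 5 with 0.1 FPKM or nothing added, 1 with 5 FPKM added, 8 after centring on the median, 6 at a fold of 1.5 and 1 at a fold of 4. The median log2 difference of 0.54 became 0.64 with nothing added, 0.27 with 5 FPKM added and 0.66 for genes with at least 5 FPKM in the higher uninduced group. In the induced groups the 14 higher genes became 8 with 5 FPKM added, 25 at a fold of 1.5 and 5 at a fold of 4. The 5 lower ones became 9 with 0.1 FPKM or nothing added, 3 with 5 FPKM added, 10 after centring, 11 at a fold of 1.5 and 1 at a fold of 4. Changing the fold or the added value moves such counts by construction.

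Of the 23 genes past 2-fold, 16 stayed past it in the same direction under each added value and after centring. CX3CL1, ACSL1, UBD, STC2, INHBE, UAP1L1 and FAT4 did not. Splitting cells with several symbols changed no count. Leaving out rows with unlike spans or out of strand order, both chosen after seeing the data, kept each count within 1.5 times. No paired analysis was possible because each group has 1 pooled value, and for the same reason no library could be left out.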
